A study of Macaca fascicularis with 16 samples.

Results

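Ribosomal proteins are encoded by nuclear genes and assemble into 2 kinds of ribosome, the cytoplasmic ribosome that translates nuclear-encoded mRNAs and the mitochondrial ribosome that translates the few proteins of the respiratory chain encoded in mitochondrial DNA. Their genes were followed in mammary tissue of ovariectomized postmenopausal female cynomolgus macaques on Affymetrix rhesus macaque arrays, 1 array per animal and 4 animals per group. Members were all probe sets annotated with a single gene symbol of a cytoplasmic (RPL, RPS, RPLP) or mitochondrial (MRPL, MRPS) ribosomal protein. This gave 101 of 14132 annotated genes, read by 164 of 52865 probe sets (67 for 39 cytoplasmic genes and 97 for 62 mitochondrial genes), chosen by symbol. The classes were chosen with earlier results of these data known.

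The animals received 0.042 mg/kg conjugated equine estrogens (CEE, a mixed oestrogen preparation), the same dose of CEE with 0.167 mg/kg medroxyprogesterone acetate (CEE+MPA, a synthetic progestin added to the oestrogens), 0.2 mg/kg tibolone (a synthetic steroid whose metabolites act on oestrogen, progesterone and androgen receptors), or no treatment (control). All groups, controls included, lacked ovaries. The labels give no duration of treatment and no age beyond the postmenopausal stage, and name 1 animal per array, so p-values measure the spread between animals. The 3 comparisons against untreated animals share the same 4 control arrays, and those between treatments reuse the treated arrays.

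Cytoplasmic ribosomal protein mRNAs are among the most abundant mRNAs of most cells. Many carry a pyrimidine-rich start that places their translation under mTOR control, and their transcription and processing rise with growth signals such as MYC. Mitochondrial ribosomal proteins are made in the cytoplasm and imported, and their genes are transcribed with other nuclear genes of mitochondrial biogenesis. Both classes are usually produced in near-balanced amounts within a ribosome, since the subunits have fixed composition.

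Of the 164 probe sets, 145 exceeded the median signal of the table (60.2, in scaled intensity units) on at least 4 of the 16 arrays and were tested. They represent 37 cytoplasmic genes (25 of the large and 12 of the small subunit by symbol) and all 62 mitochondrial genes (40 and 22 by symbol). MRPS30 and MRPS18A, counted here with the small subunit by symbol, lie in the large subunit in structures of the mammalian mitoribosome. The untested genes were RPL3L, a striated-muscle paralogue of RPL3, and RPS27L, a p53-regulated paralogue of RPS27. A further 33 probe sets carry a ribosomal protein symbol together with another symbol and were not counted as members. Each gene was read from its brightest tested probe set, which for 12 cytoplasmic and 9 mitochondrial genes has a suffix marking possible cross-hybridization to related transcripts. Mean signals of the genes ran between 53.9 and 24073 in the cytoplasmic class and between 51.3 and 4052 in the mitochondrial class, with medians of 15679 and 1118.

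The authors scaled all arrays to the same trimmed mean. Precision is limited by the number of arrays, which have no read depth. Markers of luminal epithelium were present throughout, with 12 of 13 tested markers above the table median on all 16 arrays. Skeletal muscle markers, 12 of 20 tested and none at a signal of 0, summed to 600 to 859 on CEE arrays, 713 to 5659 on CEE+MPA arrays, 924 to 13125 on tibolone arrays and 937 to 16353 on control arrays. Their mean log2 signal, centred on the 16-array mean, exceeded 1 on 4 arrays: CEE+MPA replicate 1, tibolone replicates 2 and 3 and control replicate 1. In bulk tissue, fewer cells of a type and less RNA per cell cannot be told apart.

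Averaged over its genes, each class stood highest in CEE+MPA animals on the authors' scaling, although after quantile normalization the median cytoplasmic difference of CEE+MPA from CEE was -0.00493. Each gene's log2(signal + 16) was centred on its mean over 16 arrays and the 37 cytoplasmic genes were averaged on each array. The cytoplasmic mean was 0.02, 0.09, -0.01 and 0.12 in the 4 CEE animals, 0.13, 0.12, 0.25 and 0.21 in the CEE+MPA animals, 0.17, -0.25, -0.21 and 0.04 in the tibolone animals, and -0.24, -0.28, -0.05 and -0.09 in controls. All 4 CEE+MPA arrays lay above all 4 CEE arrays and all 4 controls, and all 4 CEE arrays lay above all 4 controls. The tibolone arrays divided, with replicates 2 and 3, the ones of high skeletal muscle signal, among the lowest arrays of the series. The mitochondrial mean was 0.11, 0.12, 0.07 and -0.01 in CEE animals, 0.28, 0.25, 0.23 and 0.03 in CEE+MPA animals, 0.09, -0.21, -0.27 and -0.04 in tibolone animals, and -0.18, -0.31, -0.17 and 0.01 in controls. Here control replicate 4 lay above the lowest CEE array, and CEE+MPA replicate 4 stood below the other 3 of its group. These class means are descriptions without a test.

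**Figure D1:**
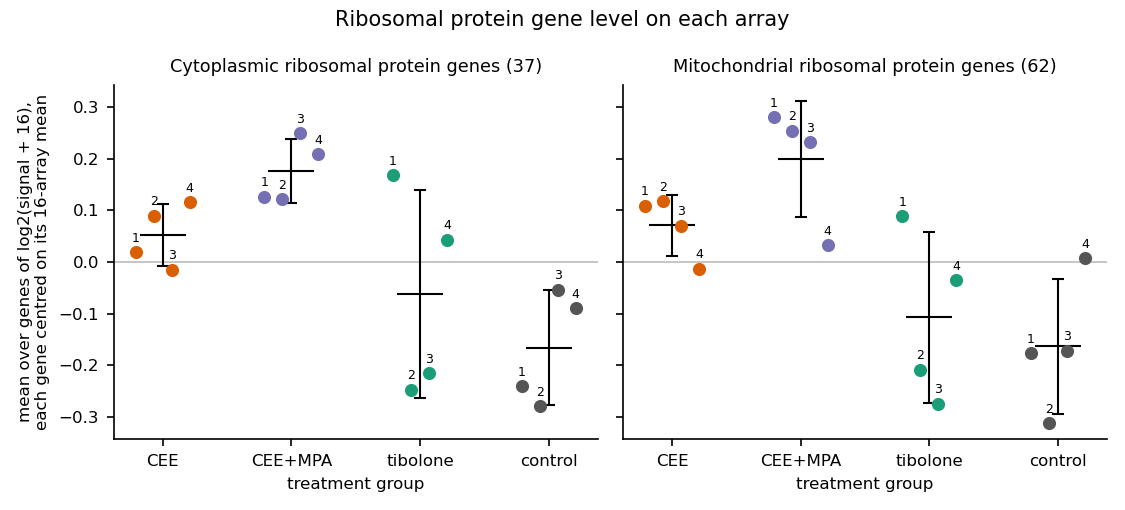
Mean level of the cytoplasmic (left, 37 genes) and mitochondrial (right, 62 genes) ribosomal protein genes on each array, as the mean of log2(signal + 16) after centring each gene on its 16-array mean. Points are animals numbered by replicate, long bars group means and error bars SD (n = 4). The CEE+MPA points lie above the controls in both panels, and tibolone replicates 2 and 3 lie with the controls.

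The comparison of CEE+MPA with control asked how the combined hormone treatment changed these genes, and it held most of the called genes. Of the 37 cytoplasmic genes, 7 rose and 1 fell at an adjusted p under 0.05, and of the 62 mitochondrial genes 9 rose and 0 fell. Over all 10452 genes tested, 2.74% rose and 4.96% fell, against 18.9% and 2.7% of the cytoplasmic genes and 14.5% and 0% of the mitochondrial genes. The median log2 fold change was 0.44 for the cytoplasmic genes (33 of 37 above 0), 0.365 for the mitochondrial genes (59 of 62 above 0) and 0.012 for all genes. In signal, the lowest CEE+MPA array exceeded the highest control for 23 cytoplasmic and 21 mitochondrial genes, where 9.04% of all genes did so. For 1 cytoplasmic and 0 mitochondrial genes every CEE+MPA array was below every control (10.5% of all genes). At an unadjusted p under 0.05, 24 cytoplasmic and 32 mitochondrial genes were higher, compared with 13.6% of all genes, and 1 and 0 were lower, compared with 14.7%. Of all probe sets, 1.95% rose and 4.38% fell, which is the background for the second probe sets given below.

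**Figure D2:**
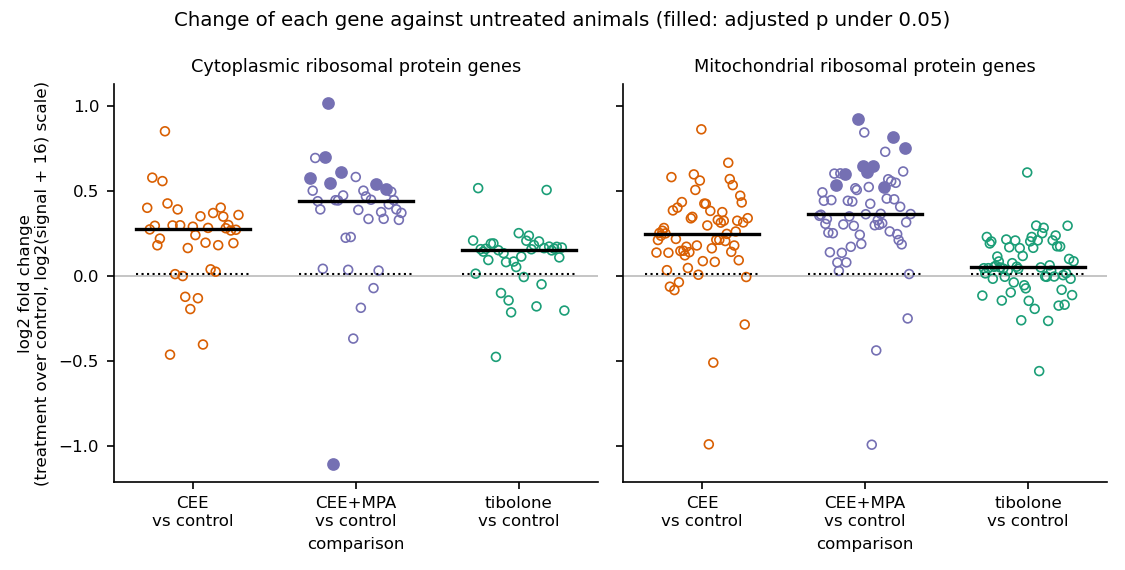
Log2 fold change of each tested gene, treatment over control on the log2(signal + 16) scale, for 37 cytoplasmic (left) and 62 mitochondrial (right) genes. Filled points passed an adjusted p of 0.05, solid lines are class medians and dotted lines the median of all 10452 genes. Called genes appear in the CEE+MPA columns only, 8 on the left and 9 on the right. The CEE+MPA cytoplasmic median of 0.44 falls to 0.0816 under quantile normalization.

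Among the cytoplasmic genes of the large subunit, RPL22L1 had the largest rise. It encodes a paralogue of RPL22 that can take its place in the ribosome. Its signals were 18606, 10624, 13030.0 and 19451 in CEE+MPA animals, against 10193, 6958, 8859.8 and 4691 in controls. The groups did not overlap, although by a small margin (10624 against 10193), and the log2 fold change was 1.02 ± 0.275 (SE, adjusted p = 0.04). RPL22 itself, the T-cell-lineage and tumour-linked member of the pair, had 7046, 6829, 7059 and 6817 in CEE+MPA animals, against 3648, 3502, 4862 and 5338 in controls. The CEE+MPA signals were tightly grouped and all above the controls, with a log2 fold change of 0.70 ± 0.2 (adjusted p = 0.0489). That probe set has a suffix marking possible cross-hybridization, and the other RPL22 probe set, without one, had 0.43 (adjusted p = 0.171) with overlapping groups.

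RPL29, also described as a heparin-binding protein at the cell surface, gave 20187, 18919.7, 20703 and 20644 in CEE+MPA animals, against 11622, 10949, 15416 and 15334 in controls. It rose by 0.61 ± 0.153 on the log2 scale (adjusted p = 0.031), on a probe set whose suffix marks possible cross-hybridization, while its other 2 tested probe sets had log2 fold changes of 0.13 and -0.02. RPL10A, a protein of the mobile L1 stalk, had 17512, 17832, 21636 and 20081 in CEE+MPA animals, against 11515, 11138, 14535 and 14619.7 in controls. No CEE+MPA array was as low as a control, and the log2 fold change was 0.58 ± 0.149 (adjusted p = 0.0341). RPL23, which also binds MDM2, the ubiquitin ligase of p53, had 19074, 19994, 19555 and 20401 in CEE+MPA animals, against 12465, 11405, 15574 and 15018 in controls. Its log2 fold change was 0.55 ± 0.141 (adjusted p = 0.0338), and its second probe set rose by 0.57 (adjusted p = 0.0496). Both RPL23 probe sets have a suffix marking possible cross-hybridization.

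The called genes of the small subunit were RPS15 and RPS21. RPS15, which lies near the decoding site, had 20846, 20738, 22371 and 22456 in CEE+MPA animals, against 14125, 13059.7, 16739.7 and 15722 in controls. RPS21, a protein needed to mature the small subunit RNA, had 21587, 22222, 24956 and 24371 in CEE+MPA animals, against 14209.8, 14680.1, 19179 and 17565 in controls. Neither pair of groups overlapped. The log2 fold changes were 0.54 ± 0.147 for RPS15 (adjusted p = 0.0413) and 0.51 ± 0.147 for RPS21 (adjusted p = 0.0491). A second, dimmer RPS15 probe set had 0.20 (adjusted p = 0.528), with overlapping groups.

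RPL24, a large-subunit protein at the interface with the small subunit, went the other way. Its signals were 1088, 1184, 857 and 872 in CEE+MPA animals, against 2279, 1625, 1489 and 3816 in controls. Every CEE+MPA array lay below every control, with a log2 fold change of -1.10 ± 0.308 (adjusted p = 0.0457). Without control replicate 4, the highest control, it was -0.825. RPL24 was also the lowest cytoplasmic gene in CEE animals (-0.46) and in tibolone animals (-0.47) against control, where it did not pass.

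**Figure D3:**
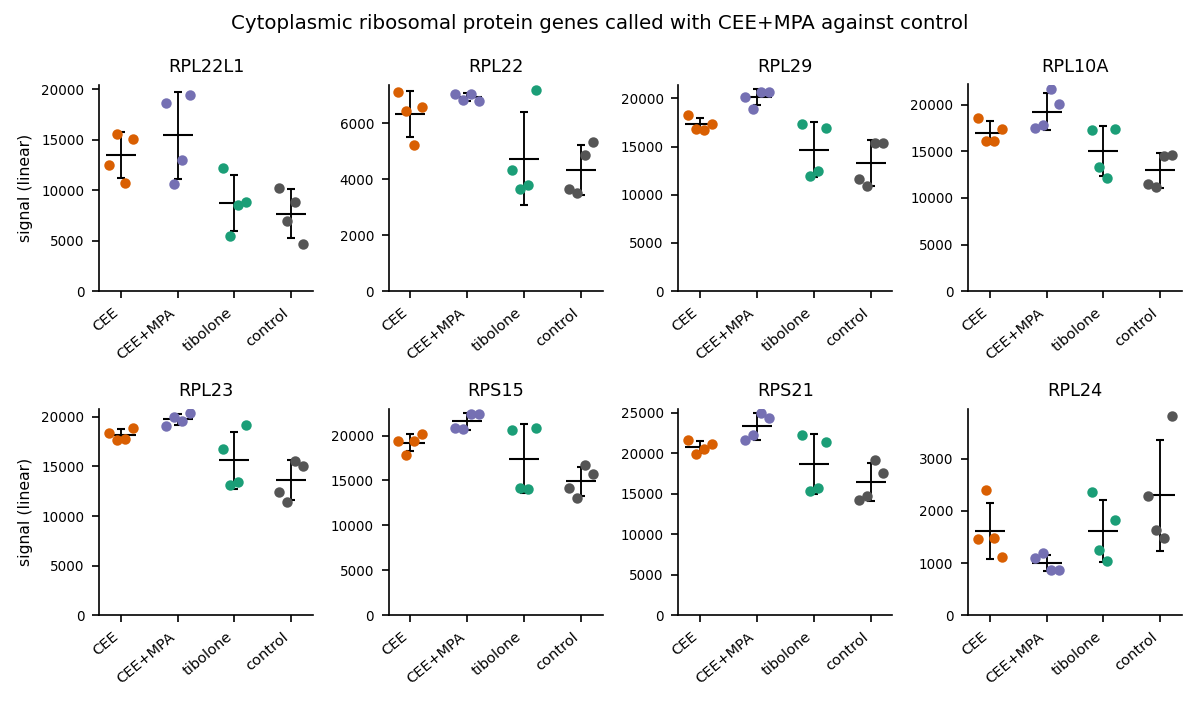
Signal (linear scale, in the authors' scaled intensity units) of the 8 cytoplasmic ribosomal protein genes called in CEE+MPA against control, for all 4 groups. Points are animals, long bars means and error bars SD (n = 4). In 7 panels the CEE+MPA points lie above all controls, and in the RPL24 panel they lie between 857 and 1184, below all controls.

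The cytoplasmic members picked for their known roles and tested did not pass on the probe sets that represent them, apart from RPL22 and RPL22L1. RPL3, RPS27, RPL39, RPL39L, RPS4X, RPSA, RPLP0 and RPL11 were also picked but had no tested probe set carrying their symbol alone. The stalk proteins RPLP1 and RPLP2, which recruit translation factors, had mean signals of 23868 ± 1947 and 23257 ± 1870.4 in CEE+MPA animals, against 18898 ± 1518 and 17015 ± 1051 in controls (SD, n = 4 each). Their groups did not overlap, but the log2 fold changes of 0.34 and 0.45 missed the threshold (adjusted p = 0.12 and 0.0646). RPS6, the substrate of the S6 kinases, averaged 24569.7 ± 1707 in CEE+MPA animals and 18709 ± 1283 in controls, also without overlap (0.39, adjusted p = 0.0757). Its second, dimmer probe set passed, at a log2 fold change of 0.48 (adjusted p = 0.0409). Both RPS6 probe sets, and that of RPL7 below, have a suffix marking possible cross-hybridization. After quantile normalization RPLP1 had -0.0668 and RPS6 -0.00806, a change of sign in both. Of the paralogue pairs, RPL26 and RPL26L1 had nearly equal log2 fold changes of 0.45 (adjusted p = 0.0606) and 0.44 (adjusted p = 0.219), although RPL26 had -0.215 on a probe set without the cross-hybridization suffix. RPL7 had 0.39 (adjusted p = 0.0786) and RPL7L1, a nucleolar factor of ribosomal RNA processing, -0.19 (adjusted p = 0.442). RPL5, which joins RPL11 in binding MDM2, was read by a probe set of only 49.5 to 128 in CEE+MPA animals and 30.3 to 60.6 in controls (close to the filter on low signals), and had a value of 0.58 (adjusted p = 0.194).

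The cytoplasmic values differed with the brightness of the probe sets. The 26 genes with a mean log2 signal of at least 12, a division made after the values were seen, all had positive log2 fold changes in CEE+MPA against control, with a median of 0.459, and held the 7 called higher. The 11 dimmer genes had 7 positive values and a median of 0.0375, with 1 called lower. Bright signals of other genes shifted too: the 99th percentile of log2 signal over non-member genes was 13.18 to 13.23 on CEE+MPA arrays and 12.97 to 13.10 on control arrays. After quantile normalization, which forces every array to the same distribution, the cytoplasmic median was 0.0816 with 27 of 37 genes positive, and 0 genes passed as higher. RPL23 then had 0.193 (adjusted p = 0.327), RPS15 0.163 (adjusted p = 0.357), and RPL22L1 0.82 (adjusted p = 0.0833), while RPL24 still passed at -1.15 (adjusted p = 0.0487). With each array centred on its median, the cytoplasmic median was 0.507 and 15 genes passed, all higher.

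The mitochondrial genes, none of which reached a mean log2 signal of 12, kept a similar median between scalings, 0.356 after quantile normalization and 0.431 after median centring, while the count of 9 became 6 and 15, all higher. Of the genes described next, MRPL48 (adjusted p = 0.0661), MRPL23 (adjusted p = 0.0738) and MRPS18A did not pass after quantile normalization. MRPS24, a small-subunit protein, had the smallest p. Its signals were 1416, 1434, 1251 and 1261 in CEE+MPA animals, against 800.1, 649.9, 739.5 and 839 in controls. Every CEE+MPA array was well above every control, with a log2 fold change of 0.815 ± 0.149 (adjusted p = 0.00848). It passed in each of the 16 fits that left out 1 array, with adjusted p up to 0.0375, and under quantile normalization (0.798, adjusted p = 0.011).

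MRPL45, a large-subunit protein by which the mitoribosome contacts the inner membrane, had the largest rise. It gave 2791, 1986, 2417 and 2182 in CEE+MPA animals, against 1143, 819, 1363 and 1722 in controls. The groups did not overlap and the log2 fold change was 0.92 ± 0.225 (adjusted p = 0.0276). MRPS34, a small-subunit protein whose human mutations cause a Leigh-like mitochondrial disease, had 1604, 1944, 1987 and 1293 in CEE+MPA animals, against 909, 1082, 989.6 and 1000.5 in controls. It rose by 0.75 ± 0.188 on the log2 scale (adjusted p = 0.031).

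The other large-subunit genes called were MRPL48, MRPL55, MRPL51, MRPL37 and MRPL23. MRPL51 had 2537, 3241, 2702 and 2889.6 in CEE+MPA animals, against 2059, 1961, 1970.1 and 1456 in controls, a log2 fold change of 0.61 ± 0.136 (adjusted p = 0.0192). A second MRPL51 probe set rose by 0.48 (adjusted p = 0.0457). Both have a suffix marking possible cross-hybridization, while the remaining one, without it, had 0.35 (adjusted p = 0.115) with overlapping groups. MRPL37 had 3204, 2717, 2806 and 2528 in CEE+MPA animals, against 1846, 1644, 1799 and 2131 in controls, a log2 fold change of 0.60 ± 0.146 (adjusted p = 0.0286). For both genes the lowest CEE+MPA array was above the highest control. MRPL48 averaged 2216 ± 161 in CEE+MPA animals and 1428 ± 281 in controls (0.65 ± 0.179, adjusted p = 0.0435), and its second probe set had -0.17. MRPL55 averaged 1003 ± 189 in CEE+MPA animals and 629.6 ± 71.8 in controls (0.64 ± 0.174, adjusted p = 0.0404). For MRPL23, an imported homologue of a bacterial exit-tunnel protein, the means were 3048 ± 357 in CEE+MPA animals and 2084 ± 118 in controls (0.54 ± 0.149, adjusted p = 0.0436). The ninth gene called was MRPS18A, 1 of several paralogues of a bacterial small-subunit protein, with 0.53 ± 0.15 (adjusted p = 0.0493). Its second probe set had 0.11 (adjusted p = 0.884), with overlapping groups.

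**Figure D4:**
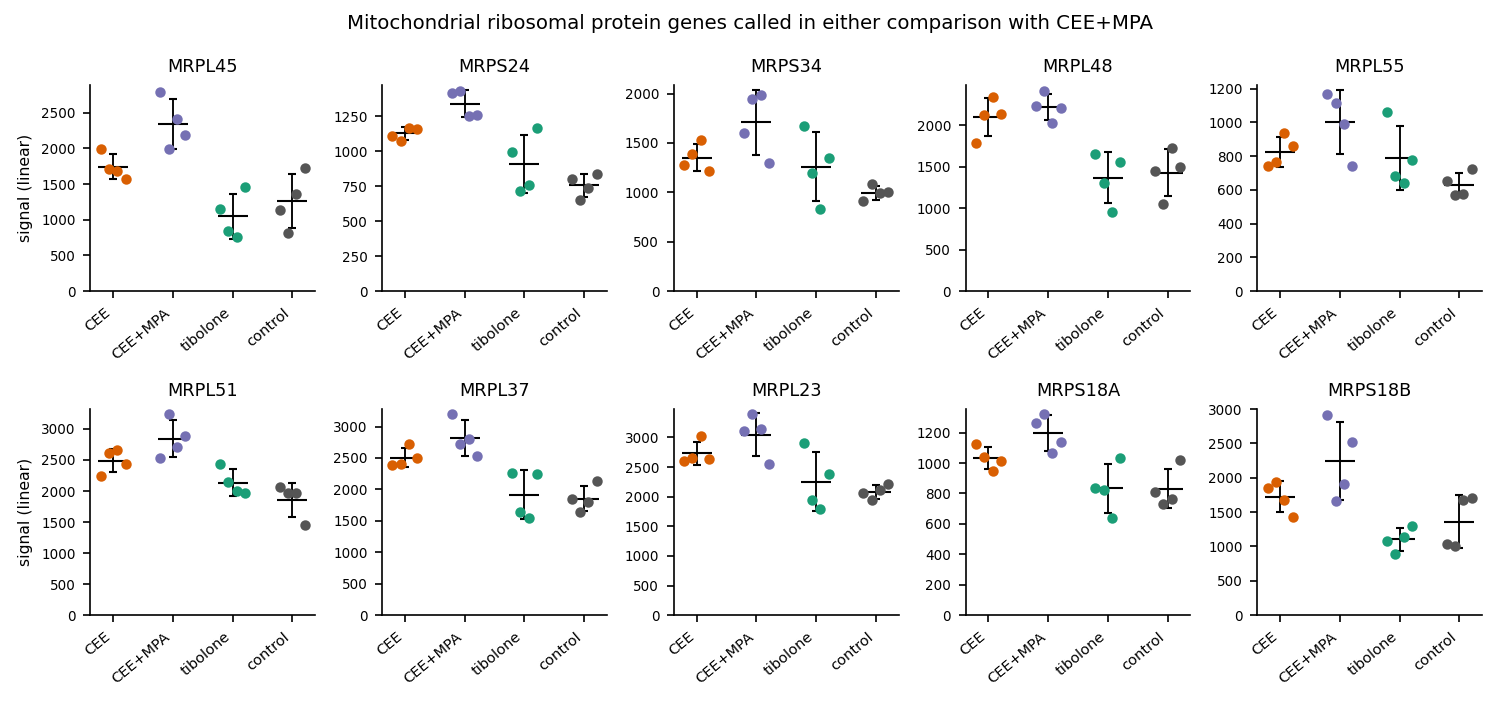
Signal (linear scale, in the authors' scaled intensity units) of the 10 mitochondrial ribosomal protein genes called in CEE+MPA against control or in tibolone against CEE+MPA, for all 4 groups. Points are animals, long bars means and error bars SD (n = 4). For 9 genes, all but MRPS18B, the CEE+MPA points lie above all controls, and most tibolone points lie near the controls.

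Mitochondrial ribosomal proteins with other reported roles did not pass. MRPL12, which also binds the mitochondrial RNA polymerase, averaged 1705 ± 485 in CEE+MPA animals and 1215 ± 132 in controls (0.44, adjusted p = 0.177). MRPL41, which has been linked to apoptosis through BCL2, gave 2527, 2842, 3075 and 2276 in CEE+MPA animals, against 2013, 1870.4, 1917 and 2047 in controls, without overlap (0.44, adjusted p = 0.0885). The MRPL12 and MRPL41 probe sets have a suffix marking possible cross-hybridization. MRPS12 had 0.30 (adjusted p = 0.232) and MRPS27, an RNA-binding protein of the pentatricopeptide family, 0.25 (adjusted p = 0.443). MRPS30, known also as a programmed cell death protein, missed the threshold on its brighter probe set (0.41, adjusted p = 0.0827), while the dimmer one rose by 0.80 (adjusted p = 0.0197). Of the genes with more than 1 tested probe set, the probe sets differed in sign for 4 of 15 cytoplasmic and 3 of 21 mitochondrial genes in CEE+MPA against control, for 5 and 9 in CEE against control and for 10 and 8 in tibolone against control.

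Small groups limit these counts. Leaving out 1 array at a time, the cytoplasmic count of 8 became 0 on removal of control replicate 2 or of CEE+MPA replicate 3 or 4, 1 on removal of control replicate 1 or CEE+MPA replicate 2, 2 without CEE+MPA replicate 1, 4 without CEE replicate 3, and 5 without control replicates 3 or 4 or CEE replicates 1, 2 or 4. The mitochondrial count of 9 became 1 without control replicate 2, 2 without control replicate 1 or CEE+MPA replicates 1, 2 or 3, 4 without control replicate 3, 5 without CEE replicate 2 and 14 without control replicate 4. The 1819 of all probe sets called became 707, 348, 1058 and 1981 without control replicates 1, 2, 3 and 4. They became 1202, 658, 552 and 1750 without CEE+MPA replicates 1, 2, 3 and 4, and 1482 to 1629 without single CEE arrays. Without tibolone replicates 1, 2, 3 and 4 they became 1817, 1782, 2244 and 2317. The cytoplasmic count rose to 12 without tibolone replicate 3. Tibolone arrays are not compared here, but all groups share 1 estimate of the spread per probe set. The class medians moved less, between 0.384 and 0.48 for the cytoplasmic and between 0.343 and 0.438 for the mitochondrial genes. Without the 4 arrays of high skeletal muscle signal, which leaves 3 CEE+MPA and 3 control arrays, the medians were 0.413 and 0.344, and 980 of all probe sets passed. The 1 cytoplasmic gene called was RPS28 (0.544, adjusted p = 0.0473), chosen for mention after its value was seen. The 2 mitochondrial genes called were MRPS24 (adjusted p = 0.0176) and MRPL51 (adjusted p = 0.0425, on a probe set whose suffix marks possible cross-hybridization). When the arrays were divided at the largest gap in the signal of the dap spike-in controls, bacterial transcripts added to the RNA, into 12 and 4 arrays, 0 genes of either class passed within either set, where 2 and 227 of all 28704 probe sets did. The set of 12 holds 2 CEE+MPA and 3 control arrays and the set of 4 holds 2 CEE+MPA arrays and 1 control, the lone control being assumed to vary like the other groups. A division at the second largest gap, chosen after seeing the data, gave 10 and 6 arrays, with 3 genes of each class passing within the 10 and 0 within the 6, each with 2 CEE+MPA and 2 control arrays, where 1374 and 0 probe sets passed.

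Markers of other cell types moved in the same comparison, in which 2.74% of all genes rose and 4.96% fell. Fibroblast markers had a mean centred log2 signal of -0.70 to -0.11 on CEE+MPA arrays and 0.24 to 0.64 on control arrays, and 5 of 10 tested fell. Of the luminal markers 2 of 13 rose and 0 fell, with class means of -0.11 to 0.04 on CEE+MPA arrays and -0.14 to 0.03 on control arrays. Among basal or myoepithelial markers 2 of 5 fell, and 1 of 8 adipocyte, 1 of 7 endothelial and 1 of 10 myeloid markers fell. At an unadjusted p under 0.05, 4 basal, 2 adipocyte, 5 endothelial, 7 myeloid, 5 fibroblast and 4 luminal markers were lower. By that measure 2 myeloid and 3 luminal markers were higher. The median log2 fold changes were -0.678 (basal), -0.517 (adipocyte), -0.548 (endothelial), -0.689 (myeloid), -0.473 (fibroblast) and 0.191 (luminal). Of 7 lymphoid and 12 skeletal muscle markers 0 passed, with 1 and 1 lower at an unadjusted p under 0.05. The part of these shifts in the ribosomal protein result was not tested. Fibroblast, basal, endothelial, adipocyte and myeloid means were not used as covariates, and the covariates that were used cannot answer for them. With the luminal mean, which hardly differed between groups (-0.0445 with CEE+MPA, -0.0566 in controls), 7 cytoplasmic and 9 mitochondrial genes passed. With the skeletal muscle mean as the covariate 8 and 5 passed. Over all probe sets 1843 and 1583 passed in these fits, against 1819 without a covariate.

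With CEE alone most members had values above 0, and none passed the test. In CEE against control 0 of 37 cytoplasmic and 0 of 62 mitochondrial genes passed in limma, where 0.0383% of all genes rose and 0.0191% fell. At an unadjusted p under 0.05, 12 cytoplasmic and 20 mitochondrial genes were higher and 0 were lower, compared with 6.68% of all genes higher and 7.47% lower. The median log2 fold change was 0.275 for the cytoplasmic genes (32 of 37 above 0), 0.25 for the mitochondrial genes (55 of 62 above 0) and 0.0145 for all genes. In signal, 15 cytoplasmic and 11 mitochondrial genes were higher on every CEE array than on any control, against 5.28% of all genes, and 0 were lower on every CEE array, against 5.21%. Quantile normalization took the cytoplasmic median to 0.0759 and the mitochondrial median to 0.246, and a skeletal muscle covariate took them to 0.173 and 0.213. Most markers of other cell types had values below 0. Above 0 were 8 of 13 luminal markers (median 0.219) and 1 of 5 basal or myoepithelial (-0.18), and 0 of 12 skeletal muscle (-1.19), 0 of 8 adipocyte (-0.655), 0 of 7 endothelial (-0.277), 0 of 7 lymphoid (-0.361), 1 of 10 fibroblast (-0.36) and 1 of 10 myeloid markers (-0.682), with 0 markers passing. At an unadjusted p under 0.05, 7 myeloid, 4 fibroblast, 3 skeletal muscle, 3 endothelial, 1 adipocyte and 2 luminal markers were lower, and 3 luminal and 1 fibroblast marker higher. The part of the other cell types in the class medians was not tested, since only muscle and luminal means were used as covariates. The luminal covariate gave medians of 0.249 and 0.238.

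RPL22L1 had the largest cytoplasmic difference. Its signals were 12516, 15567, 10703 and 15042 in CEE animals, against 10193, 6958, 8859.8 and 4691 in controls, a log2 fold change of 0.85 ± 0.275 that missed the threshold (adjusted p = 0.248). RPL23 had 18399, 17624, 17777 and 18891 in CEE animals, all above the controls, whose highest was 15574 (0.43, adjusted p = 0.254). For RPL13 the log2 fold change was 0.58 (adjusted p = 0.276) with overlapping groups, on a probe set whose suffix marks possible cross-hybridization. MRPS24 again had the smallest mitochondrial p, with 1109.8, 1072, 1167 and 1162 in CEE animals, against controls of 649.9 to 839 (0.57 ± 0.149, adjusted p = 0.171). MRPS23, a small-subunit protein, had 2236, 2437, 1635 and 1578 in CEE animals, against 1047, 1126, 1234 and 1494 in controls, and MRPL48 had 1778, 2126, 2332 and 2133 in CEE animals, against 1443, 1048, 1726 and 1494 in controls. For both genes every CEE array exceeded every control, and the log2 fold changes were 0.67 ± 0.188 (adjusted p = 0.2) and 0.56 ± 0.179 (adjusted p = 0.241).

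Adding MPA to CEE was tested directly. In CEE+MPA against CEE 0 genes of either class passed, where 0% of all genes rose and 0.0287% fell, and at an unadjusted p under 0.05 0 cytoplasmic genes and 1 mitochondrial gene were higher (2.7% of all genes), with 0 lower (4.88%). All CEE+MPA arrays were above all CEE arrays for 6 cytoplasmic and 2 mitochondrial genes (2.43% of all genes), and below them for 1 and 0 (3.18%). Most members were nevertheless above 0, 31 of 37 cytoplasmic and 54 of 62 mitochondrial genes, with medians of 0.151 and 0.129 against 0.00392 for all genes. The cytoplasmic median was -0.00493 after quantile normalization, with 18 of 37 genes positive, whereas the mitochondrial median was 0.106. The smallest p-values belonged to RPL24 (-0.64 ± 0.308, adjusted p = 0.653), RPL26L1 (0.43 ± 0.215, adjusted p = 0.66) and RPL17 (0.21, adjusted p = 0.738) in the cytoplasmic class. RPL26L1 had 1356, 1600.3, 1285 and 1013 in CEE+MPA animals, against 738, 920.4, 1322 and 932 in CEE animals, and the groups overlapped. In the mitochondrial class they belonged to MRPS25 (0.31 ± 0.144, adjusted p = 0.646), MRPL2 (0.31, adjusted p = 0.66) and MRPL41 (0.30, adjusted p = 0.662). The MRPS25 and MRPL41 probe sets have a suffix marking possible cross-hybridization. A p that misses the threshold does not show that the 2 treatments acted alike, and a gene called with CEE+MPA but not with CEE does not show that they differed.

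In tibolone against control 0 genes of either class passed, where 0.00957% of all genes rose and 0% fell, and 1 gene of each class was higher at an unadjusted p under 0.05 (2.58% of all genes) and 0 were lower (2.25%). On every array of the group 1 cytoplasmic and 0 mitochondrial genes were above all controls (1.81% of all genes) and 0 were below them (1.3%). The medians were 0.152 for the cytoplasmic genes (29 of 37 above 0), 0.0515 for the mitochondrial genes (41 of 62 above 0) and 0.0113 for all genes. The smallest cytoplasmic p was that of RPL13, with 20458, 14447, 13995 and 15601 in tibolone animals, against 11692, 9034, 13370.1 and 10869.5 in controls (0.52 ± 0.202, adjusted p = 0.9). The groups did not overlap. RPS19, mutated in Diamond-Blackfan anaemia, had 0.51 ± 0.311 on a dim probe set (adjusted p = 0.913). MRPS14 had 0.28 ± 0.128, MRPL34 0.22 ± 0.118 and MRPL49 0.61 ± 0.343, all at an adjusted p of 0.913.

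The tibolone arrays were not alike. RPS15, for example, had 20672, 14118, 14084 and 20816 on the 4 tibolone arrays, with replicates 1 and 4 close to the CEE+MPA range of 20738 to 22456 and replicates 2 and 3 within the control range of 13059.7 to 16739.7. RPS21 showed the same division, with 22245, 15267, 15719 and 21329. Replicates 2 and 3 are the tibolone arrays of high skeletal muscle signal, with mean centred marker levels of 2.44 and 1.62. Their adipocyte means, 0.70 and 1.27, were also above those of replicates 1 and 4, -0.22 and -1.15. Endothelial means were 0.42 and 0.41 against -0.13 and 0.06. Fibroblast and myeloid means divided the same way, and luminal, basal and lymphoid means did not. Without the 4 arrays of high muscle signal the medians against control were 0.32 for the cytoplasmic and 0.202 for the mitochondrial genes. Again 0 of these genes were called, and 0 of all probe sets. Without tibolone replicate 1 they were 0.0525 and -0.0258. The part of the muscle signal, or of the other cell types, in this division was not tested.

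Tibolone against CEE likewise called 0 genes of either class, as of all genes (0%). The medians were -0.111 for the cytoplasmic genes (4 of 37 above 0) and -0.184 for the mitochondrial genes (11 of 62 above 0), against 0.00946 for all genes. At an unadjusted p under 0.05, 3 cytoplasmic and 10 mitochondrial genes were lower, compared with 6.45% of all genes, and 0 were higher, compared with 6.53%. The groups were apart, with tibolone lower, for 0 cytoplasmic and 6 mitochondrial genes (3.02% of all genes), and with tibolone higher for 0 of either class (2.86%). RPS9, a small-subunit protein, had 16733, 10249, 8371 and 19793 in tibolone animals, against 19041, 16885, 21147 and 19863 in CEE animals, the tibolone arrays spanning a wide range (-0.56 ± 0.226, adjusted p = 0.357). RPL22L1 had -0.66 (adjusted p = 0.372) and RPL22 -0.46 (adjusted p = 0.379). MRPS23 had 1512, 1312, 1021 and 1068 in tibolone animals, against 2236, 2437, 1635 and 1578 in CEE animals, with no overlap (-0.67 ± 0.188, adjusted p = 0.258). MRPL48 (-0.63) and MRPL45 (-0.77) had the same adjusted p. Without the 4 arrays of high muscle signal the cytoplasmic median turned to 0.086 and the mitochondrial median was -0.0404 (2 tibolone arrays left), and with a muscle covariate they were 0.00287 and -0.127. All 12 skeletal muscle markers were above 0 in this comparison (median 1.77), 5 of them at an unadjusted p under 0.05 and 0 passing.

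Tibolone and CEE+MPA, which both reach progesterone receptors, gave the most called members of the 3 comparisons between treatments. In tibolone against CEE+MPA 0 of 37 cytoplasmic genes passed, with 16 lower at an unadjusted p under 0.05, and 6 of 62 mitochondrial genes fell and 0 rose. Over all genes 3.37% fell and 3.98% rose, and 13% were lower and 15% higher at an unadjusted p under 0.05, where 22 mitochondrial genes were lower, 1 cytoplasmic gene was higher and 0 mitochondrial genes were higher. All tibolone arrays were below all CEE+MPA arrays for 4 cytoplasmic and 13 mitochondrial genes (7.03% of all genes), and above them for 0 (7.78%). The medians were -0.274 for the cytoplasmic genes (32 of 37 below 0) and -0.277 for the mitochondrial genes (59 of 62 below 0), against 0.0135 for all genes. Quantile normalization changed the cytoplasmic median to -0.0484 and the mitochondrial median to -0.251, with 2 of the 6 mitochondrial calls left, MRPL45 (adjusted p = 0.0216) and MRPS18B (adjusted p = 0.0305). Of other cell types' markers, 4 of 10 fibroblast, 2 of 5 basal or myoepithelial, 1 of 8 adipocyte, 1 of 7 endothelial and 1 of 13 luminal markers rose and 1 luminal marker fell. All 12 skeletal muscle markers were above 0 (median 0.719) with 0 passing. With the muscle mean as a covariate 2 mitochondrial genes passed, and 741 of all probe sets, against 1820 without it. The part of the fibroblast, basal, adipocyte and endothelial shifts was not tested. Among cytoplasmic genes RPL29 had the smallest p, with 17381, 11945, 12442 and 16952 in tibolone animals, against 20187, 18919.7, 20703 and 20644 in CEE+MPA animals (-0.47 ± 0.153, adjusted p = 0.073). RPL22 (-0.60, adjusted p = 0.0783) and RPL22L1 (-0.83, adjusted p = 0.0795) came next.

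MRPL45 fell furthest. Its signals were 1149, 846, 751 and 1452 in tibolone animals, against 2791, 1986, 2417 and 2182 in CEE+MPA animals, without overlap, and the log2 fold change was -1.18 ± 0.225 (adjusted p = 0.013). MRPS18B, a paralogue of MRPS18A in the small subunit, had 1085, 893, 1142 and 1299 in tibolone animals, against 2909, 1663, 1903 and 2526 in CEE+MPA animals. Its log2 fold change was -0.99 ± 0.214 (adjusted p = 0.0213), while against control its CEE+MPA value of 0.73 missed the threshold (adjusted p = 0.0537). MRPL48 averaged 1365 ± 309.9 in tibolone animals and 2216 ± 161 in CEE+MPA animals (-0.72 ± 0.179, adjusted p = 0.0327). MRPS24 fell by 0.58 (adjusted p = 0.0362), MRPL37 by 0.57 (adjusted p = 0.0368) and MRPS18A by 0.53 (adjusted p = 0.0479) on the log2 scale. For MRPS24 the tibolone signals were 992, 719, 760.4 and 1167, the highest of them still below the lowest CEE+MPA signal of 1251.

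Like the count over all probe sets, the mitochondrial count of 6 changed when single arrays were left out. It became 0 without tibolone replicate 2, 1 without tibolone replicate 3 or CEE+MPA replicate 1, 2 without CEE+MPA replicates 2 or 3, 3 without CEE+MPA replicate 4 and 10 without tibolone replicate 4, where 5 cytoplasmic genes also passed. The 1820 of all probe sets called became 209 without tibolone replicate 2, 295 without tibolone replicate 3 and 723 without CEE+MPA replicate 1. They became 841, 413 and 1040 without CEE+MPA replicates 2, 3 and 4, and 3333 without tibolone replicate 4. Without the 4 arrays of high muscle signal 0 genes of either class passed, and 0 of all 28704 probe sets. The medians were then -0.103 and -0.119, and MRPL45 had -0.753 (adjusted p = 0.405) and MRPS18B -0.745 (adjusted p = 0.401). That fit has 2 tibolone arrays.

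**Figure D5:**
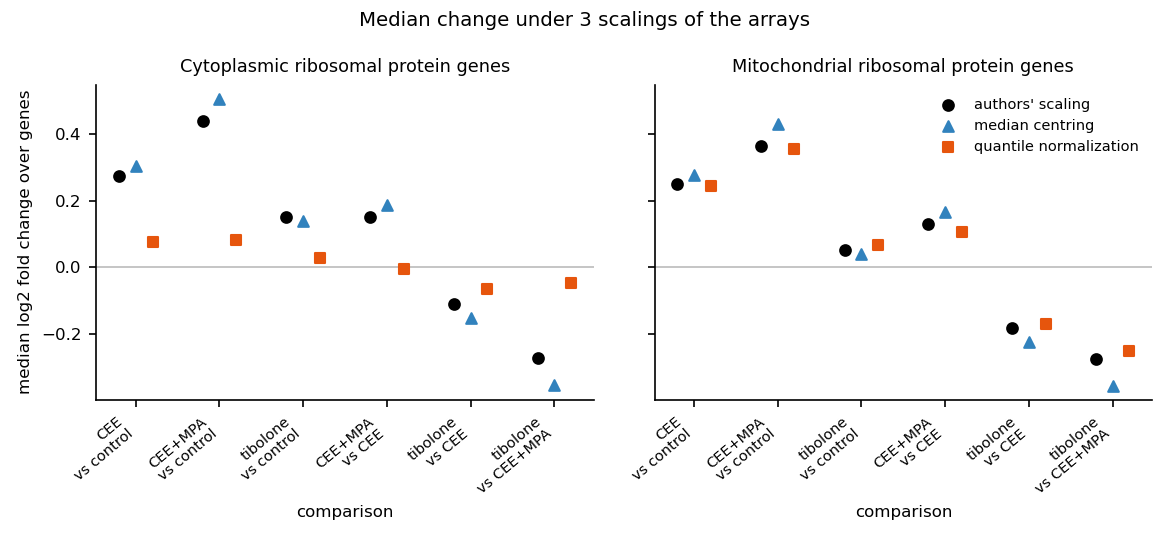
Median log2 fold change of the cytoplasmic (left) and mitochondrial (right) ribosomal protein genes in the 6 comparisons under the authors' scaling (circles), median centring of each array (triangles) and quantile normalization (squares). The cytoplasmic medians lie nearer to 0 under quantile normalization, 0.0816 against 0.44 in CEE+MPA against control, and the one of CEE+MPA against CEE changes sign. The mitochondrial medians stay close together.

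Genes that work with the ribosome were described from 4 lists, each as counts with no test of the list. Of 7 tested ribosomal components outside the symbol pattern, 1 rose and 0 fell in CEE+MPA against control, where 2.74% of all genes rose and 4.96% fell. The 1 that rose was FAU, whose product is cut to release a small-subunit protein, at 0.57 ± 0.139 (adjusted p = 0.0277), with mean signals of 22256 ± 765 in CEE+MPA animals and 15089 ± 1989 in controls (SD, n = 4 each). After quantile normalization 0 of the 7 passed.

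Of 25 tested translation factors 8 rose and 1 fell in CEE+MPA against control, with a list median of 0.312, where 2.74% of all genes rose and 4.96% fell. The 4 with the smallest p were subunits of initiation factors. EIF3F averaged 12169.8 ± 559 in CEE+MPA animals and 7571 ± 982 in controls, a log2 fold change of 0.69 ± 0.125 (adjusted p = 0.00824). EIF3E rose by 0.63 (adjusted p = 0.0247), EIF2S2 by 0.69 (adjusted p = 0.0267) and EIF2S1 by 0.55 (adjusted p = 0.0294). Quantile normalization left 3 higher and 0 lower. In tibolone against CEE+MPA 10 of the 25 fell and 0 rose, where 3.37% of all genes fell, and 6 fell after quantile normalization. EIF2S1, the subunit through which stress kinases slow translation, averaged 816 ± 53.3 in tibolone animals and 1389.5 ± 243 in CEE+MPA animals (-0.74 ± 0.135, adjusted p = 0.011). EIF3F had -0.67 (adjusted p = 0.0123), EIF3L -1.07 (adjusted p = 0.0206) and EIF3E -0.62 (adjusted p = 0.0301).

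Of 36 tested genes of ribosome biogenesis 8 rose and 0 fell in CEE+MPA against control, where 2.74% of all genes rose and 4.96% fell. The list median was 0.447, and 6 rose after quantile normalization. DKC1, the pseudouridine synthase of ribosomal RNA and telomerase, averaged 1748 ± 210.0 in CEE+MPA animals and 1062 ± 83.4 in controls (0.71 ± 0.147, adjusted p = 0.0145). POLR1D, a subunit shared by RNA polymerases that transcribe ribosomal RNA, rose by 0.63 (adjusted p = 0.0164). NPM1, the nucleolar chaperone nucleophosmin, rose by 0.67 (adjusted p = 0.0184) and FBL, the nucleolar methyltransferase fibrillarin, by 0.57 (adjusted p = 0.0199). MYC, a transcriptional regulator of ribosome production, averaged 1523 ± 335 in CEE+MPA animals and 773 ± 273 in controls and rose by 1.002 ± 0.275 (adjusted p = 0.0422). Its values against control were 0.53 with CEE (adjusted p = 0.45) and 0.36 with tibolone (adjusted p = 0.913). In tibolone against CEE+MPA 5 of the 36 fell and 0 rose, where 3.37% of all genes fell and 3.98% rose. The 5 were led by DKC1 (-0.70, adjusted p = 0.0197), NPM1 (-0.58, adjusted p = 0.0356), UTP4 (-0.54, adjusted p = 0.0411) and POLR1D (-0.50, adjusted p = 0.0415). After quantile normalization 2 fell.

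Of 19 tested genes of mitochondrial translation and biogenesis 2 rose and 0 fell in CEE+MPA against control, with a list median of 0.25, where 2.74% of all genes rose and 4.96% fell. The 2 that rose were the mitochondrial elongation factors GFM1, with means of 1638 ± 214 in CEE+MPA animals and 1079.8 ± 56.1 in controls (0.59 ± 0.14, adjusted p = 0.0263), and TUFM (0.57 ± 0.154, adjusted p = 0.0401). In tibolone against CEE+MPA GFM1 (-0.58, adjusted p = 0.0301) and the release factor gene MTRF1 (-0.69, adjusted p = 0.0449) fell, where 3.37% of all genes did. In CEE or tibolone against control, and in CEE+MPA or tibolone against CEE, 0 genes of any of these 4 lists passed. At an unadjusted p under 0.05, 8 biogenesis genes and 7 translation factors were higher with CEE against control, of 36 and 25 tested, where 6.68% of all genes were. With tibolone 2 and 0 were, where 2.58% of all genes were.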

How the data were processed

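Mammary tissue RNA of 16 animals was measured on Affymetrix rhesus macaque arrays, 1 per animal. The deposited values were linear intensity (signal) per probe set, scaled by the authors to a mean of 250.02 in 15 arrays and 250.01 in 1 after trimming 2% of values at each end, and not log transformed. Per the submitters' processing notes, GCOS and Affymetrix Expression Console were used. The sources used here give no versions, summary algorithm or genome build. Arrays carry no read depth, and probes were designed for another macaque species than the one studied.

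Of 52865 probe sets, 99 were Affymetrix controls and left out. A single gene symbol was annotated for 24956 probe sets, several for 361 and none for 27535, and the cynomolgus RefSeq gene table held 100 of the 101 member symbols. Probe sets with a signal above 60.2, the median of the table, on at least 4 arrays were tested (28704 probe sets, 10452 genes, each gene read from its brightest tested probe set). Signals were taken as log2(signal + 16), which understates changes of low signals. The 4 group means were fitted in 1 model with limma 3.58.1 in R 4.3.3, with moderated tests, and 6 comparisons were adjusted by the Benjamini-Hochberg method over all tested probe sets at 0.05. The model's steps were tested on simulated data. Summaries and plots used Python 3.11.15, pandas 2.3.3, numpy 2.4.6 and matplotlib 3.10.9.

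Named genes were, per comparison and class, up to 8 called higher and 8 called lower, or the 3 of smallest p where fewer than 3 passed, with a panel of members of known roles, the 4 of smallest p in each list where any passed, and MYC as a regulator of ribosome production. MRPS18A, the ninth mitochondrial call, and RPS28 were added. The panel is described in CEE+MPA against control. Members and lists were chosen with earlier results of these data known. Replicate numbers followed the order of the arrays and pair nothing. Alternatives changed the scaling, low-signal filter, offset (1 or 64), array weights, arrays entering the fit, probe set choice, threshold and covariates, or left out arrays.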

Additional observations from a re-analysis of the deposited data

Results flagged for a closer look

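Within each group of 4 animals, each of the genes called in any comparison and each class mean was checked for 1 array far from the others, by the gap of the outermost array to its neighbour divided by the range of the group, against Dixon's critical value for 4 samples. Of 80 groups checked 2 exceeded it, and chance flags about 1 in 20 groups. MRPL23 in CEE replicate 3 had a log2(signal + 16) of 11.57, above the 11.35 to 11.39 of the other CEE arrays (gap ratio 0.855). MRPL51 in control replicate 4 had 10.52, below the 10.95 to 11.02 of the other controls (gap ratio 0.859).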

How the results depend on the processing

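With 4 animals per group, counts of called genes moved more than class medians. For CEE+MPA against control, the 8 cytoplasmic genes called became 1 under quantile normalization, 15 with median centring, 0 with no filter, 18 with a filter at the 75th percentile, 5 and 16 with offsets of 1 and 64, 22 with array weights, 5 with only the groups compared, 22 at a threshold of 0.10, 5 with the spike-in set as a block, 0 within either spike-in set (the high one with 1 control array), 0 and 3 within the low and high sets of the second gap (chosen after seeing the data), and 1 without the arrays of high muscle signal. The 9 mitochondrial genes became 15 with median centring, 3 with no filter, 16 with the filter at the 75th percentile, 20 with array weights, 22 at 0.10, 0 within the low spike-in set, 17 with the second-gap set as a block, 0 and 3 within its low and high sets, 5 with a muscle covariate and 2 without the high-muscle arrays. All probe sets called, 1819, became 1318 under quantile normalization, 1926 with median centring, 984 with no filter and 1938 with the filter at the 75th percentile. They became 1666 and 2110 with offsets of 1 and 64, 3729 with array weights, 1730 with only the groups compared and 3713 at 0.10. The spike-in block gave 1731, the second-gap block 2373, a muscle covariate 1583 and the fit without the high-muscle arrays 980. For tibolone against CEE+MPA, the 0 cytoplasmic genes called became 1 with median centring, the filter at the 75th percentile, array weights or the spike-in block, and 3 at 0.10. The 6 mitochondrial genes became 2 under quantile normalization, no filter, within the low spike-in set or with a muscle covariate, 10 with median centring or the filter at the 75th percentile, 1 with only the groups compared, 16 at 0.10, 12 with the spike-in block, 3 with the second-gap block or within its high set, and 0 without the high-muscle arrays. All probe sets called, 1820, became 1251 under quantile normalization, 799 with no filter, 380 within the low spike-in set and 741 with a muscle covariate. They became 1775 with median centring, 1803 with the filter at the 75th percentile, 2168 with array weights, 215 with only the groups compared and 3753 at 0.10. The spike-in block gave 2148, the second-gap block 735, its high set 564 and the fit without the high-muscle arrays 0. All 4 tibolone arrays lie in the low set of the largest gap and in the high set of the second gap. The block fits therefore compare tibolone within 1 set only. Leaving out 1 array gave 0 to 12 cytoplasmic and 1 to 14 mitochondrial genes in CEE+MPA against control. In tibolone against CEE+MPA it gave 0 to 5 and 0 to 10. Of all probe sets, such fits called 348 to 2317 in the former comparison and 209 to 3333 in the latter. In the other 4 comparisons 0 genes of either class passed under any alternative run. Of all probe sets called, the share lower was 69.2% in CEE+MPA against control and 49.8% with median centring, and 40.3% and 61.6% in tibolone against CEE+MPA.

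The cytoplasmic median in CEE against control, 0.275, was 0.0759 under quantile normalization, 0.395 within the high spike-in set, 0.161 and 0.376 within the low and high second-gap sets and 0.173 with a muscle covariate. In CEE+MPA against control, 0.441, it was 0.0816 under quantile normalization, 0.337 without cross-hybridizing probe set types, 0.543 within the high spike-in set and 0.31 within the low second-gap set, and the mitochondrial median of 0.365 was 0.584 and 0.496 within the high sets of the largest gap (2 CEE+MPA arrays against 1 control) and the second gap (2 and 2). Without the high-muscle arrays the medians were 0.32 (cytoplasmic) and 0.202 (mitochondrial) in tibolone against control, 0.086 and -0.0404 in tibolone against CEE, and -0.103 and -0.119 in tibolone against CEE+MPA. In CEE+MPA against CEE the cytoplasmic median was -0.00493 under quantile normalization and 0.232 with a muscle covariate, and the mitochondrial one 0.244 within the high spike-in set. In tibolone against CEE+MPA the cytoplasmic median was -0.0484 under quantile normalization. Of the single genes, RPLP1 (-0.0668) and RPS6 (-0.00806) changed sign in CEE+MPA against control under quantile normalization, RPL26 (-0.215) without cross-hybridizing probe set types, and MRPL2 (-0.0426) in CEE+MPA against CEE as a mean of its probe sets. MRPS24 passed in CEE+MPA against control in 18 of 21 alternatives and all 16 fits without 1 array. Other genes called there passed in fewer of these 16 fits. RPL22 passed in 4, RPS15, RPS21, MRPL48 and MRPL23 in 5, RPL24 in 7 and MRPL55 in 9. RPL22L1, RPL29, RPL23, MRPS34 and MRPL37 passed in 10, RPL10A in 11, MRPL45 in 12 and MRPL51 in 14. In tibolone against CEE+MPA the called genes passed in 2 (MRPS18A) to 15 (MRPL45) of 16. The cause of these shifts was not tested. No paired analysis was possible because every animal is in a single group.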

Other observations

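Signals of some members varied in ways that no comparison above describes. RPL9, a large-subunit protein, was read at 2838 to 4162 on 5 arrays (2 CEE, 1 CEE+MPA, 1 tibolone and 1 control) and at 10391 to 22532 on the other 11, so that its low arrays were spread over all 4 groups. RPL13 has several probe sets that differed in pattern. A probe set of it that does not represent the gene in the counts had 13054 to 15418 on CEE arrays, 3398 to 7165 on CEE+MPA arrays, 2654 to 5241 on tibolone arrays and 2875 to 9448 on control arrays. For that probe set the CEE arrays lay above all others, with a log2 fold change against control of 1.70 ± 0.324 (SE, limma adjusted p = 0.0581). The brightest probe set of RPL13 had 12557 to 19631 on CEE arrays, 13680 to 23925 on CEE+MPA arrays, 13995 to 20458 on tibolone arrays and 9034 to 13370.1 on control arrays, and there the CEE arrays overlapped those of the other 3 groups. These genes were chosen for mention after their values were seen.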
